A study of Mus musculus with 4 samples.

Results

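The loci of 6 endoderm transcription factor genes, Gata6, Gata4, Sox17, Sox7, Foxa2 and Hnf4a, were examined in ATAC-seq peak lists of mouse embryonic stem cells. ATAC-seq uses a transposase to insert sequencing adapters into open chromatin, and a peak is an interval where such insertions pile up. Per the labels, the wt cells and the cells of genotype Hox-/-, which by the series title lack all Hox function, were both grown with 10% serum, 100 ng/ml leukaemia inhibitory factor, 3 µM of the GSK-3 inhibitor CHIR99021 and 1 µM of the MEK1/2 inhibitor PD0325901. Each genotype had 2 libraries, made from 50000 cells with 12 cycles of PCR. The labels do not say whether replicates came from separate cultures or clones, so the spread between them may be technical. The members were the peaks that overlap the body of a listed gene or 20 kb on either side of it. After merging peaks of the 4 libraries that overlap by at least 1 bp, this gave 72 of the 208141 regions on the assembled chromosomes.

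The 6 factors act in endoderm, the germ layer and extraembryonic tissue that line the yolk sac and the gut. GATA6 and GATA4 are zinc finger proteins that set up primitive endoderm, the alternative fate to epiblast in the blastocyst, and GATA6 expression there depends on FGF signalling through MEK and ERK. SOX17 and SOX7 are related HMG-box proteins of primitive endoderm, definitive endoderm and vessels. FOXA2 is a forkhead pioneer factor of definitive endoderm, node and floor plate, and HNF4A is a nuclear receptor of visceral endoderm, liver and gut. Embryonic stem cells correspond to epiblast and normally keep these genes at low expression.

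In coordinates of GRCm38 (mm10), 5 of the genes lie at chr14:63198914-63271712 (Gata4), chr1:4490928-4497426 (Sox17), chr14:63943706-63950732 (Sox7), chr2:148042877-148046969 (Foxa2) and chr2:163506811-163572907 (Hnf4a). Distances below run from the start of a gene along its transcription. The outermost region inside the windows lay 19.8 kb from its gene (Sox17), and the nearest ones outside lay 20.4 kb (Gata4) and 20.5 kb (Foxa2) away.

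Promoter sequence from RefSeq (GRCm38.p6) was at hand for 2 of the 6 genes, Foxa2 and Hnf4a. It covers the 250 bases before each transcript start that the promoter table lists. The first Hnf4a start of that table lies inside the gene span given above, so its window runs past the outermost end of the span. The following 4 windows are shown because they set a window that overlaps a peak beside windows that do not. Capitals mark matches to GATAA (GATA factors) or ACAAT (SOX factors) on either strand.
Foxa2, window overlapping a peak, chr2:148045949-148046198, minus strand: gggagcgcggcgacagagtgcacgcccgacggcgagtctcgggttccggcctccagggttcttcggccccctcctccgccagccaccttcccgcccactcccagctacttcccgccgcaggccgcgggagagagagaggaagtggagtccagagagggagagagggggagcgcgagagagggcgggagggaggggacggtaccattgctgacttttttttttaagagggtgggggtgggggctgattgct
Foxa2, outermost start, chr2:148046970-148047219, minus strand: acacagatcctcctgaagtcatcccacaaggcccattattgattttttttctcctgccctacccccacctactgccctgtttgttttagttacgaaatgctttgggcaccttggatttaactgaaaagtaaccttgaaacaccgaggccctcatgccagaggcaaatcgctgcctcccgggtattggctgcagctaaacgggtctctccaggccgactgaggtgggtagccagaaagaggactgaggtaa
Hnf4a, first listed start, chr2:163506607-163506856, plus strand: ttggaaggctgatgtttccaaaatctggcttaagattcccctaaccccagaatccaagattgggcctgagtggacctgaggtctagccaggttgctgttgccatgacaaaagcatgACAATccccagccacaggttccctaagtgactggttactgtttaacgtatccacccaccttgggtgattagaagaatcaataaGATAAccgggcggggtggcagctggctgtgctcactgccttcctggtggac
Hnf4a, second listed start, chr2:163546905-163547154, plus strand: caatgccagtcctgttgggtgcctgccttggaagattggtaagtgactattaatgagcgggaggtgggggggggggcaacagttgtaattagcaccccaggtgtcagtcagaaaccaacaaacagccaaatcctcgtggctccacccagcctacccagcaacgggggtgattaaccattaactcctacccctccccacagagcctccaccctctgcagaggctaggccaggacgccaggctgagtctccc

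The Foxa2 window that overlaps a peak was 67.2% G or C with 20 CG pairs, against medians of 52.4% and 6 over all 32851 promoter windows of the table. It overlapped a peak in all 4 libraries, as 47.3% of all windows did. The outermost Foxa2 window (50.8% G or C, 6 CG pairs) overlapped none, and the nearest peak was 202 to 303 bp away. A further Foxa2 window, at chr2:148045465-148045714, held 1 GATAA match and no peak. Both Hnf4a windows were outside peaks in every library, like 46.7% of all windows. The nearest peak lay 3034 to 3039 bp from the first Hnf4a window and 11402 to 11451 bp from the second. GATAA is present in 22.6% and ACAAT in 27.7% of all windows. None of the 5 windows of Foxa2 and Hnf4a held TGTTTAC (forkhead factors, in 3.17% of all windows), CAAAGTCCA (HNF4, in 0.384%) or TGATTNAT (HOX with PBX, in 2.82%), on either strand, where N is any base.

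The strength of a peak is given as its rank in the list of its own library, by −log10 p, with rank 1 for the strongest of 191704 to 216795 peaks. A strong peak is 1 of the 50000 strongest. The strongest peak within 20 kb differed widely among the 6 genes. For Hnf4a it ranked 9426 to 11784 over the 4 libraries, and for Gata6 16665 to 23916. The range was 17647 to 30200 for Gata4, 35001 to 54773 for Foxa2, 41543 to 59307 for Sox17 and 71248 to 97231 for Sox7. In this order Gata6 and Gata4 overlapped, as did Foxa2 and Sox17, while the other neighbours were apart in all 4 libraries. Hnf4a, Gata6 and Gata4 had a strong peak in all 4 libraries, which makes 3 of 6 genes against 77.0% of 21887 protein-coding genes. The median best rank was 32972 over the 6 genes and 9363 over all protein-coding genes with a peak. These are descriptions of the loci and were not tested.

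**Figure D1:**
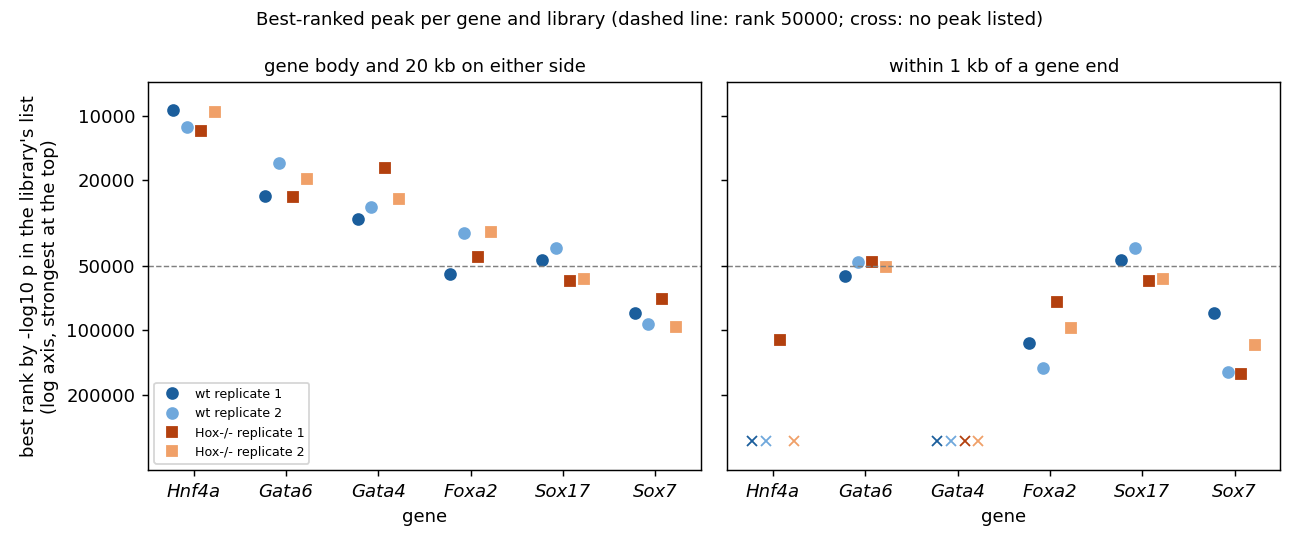
The vertical log axis gives the rank of the strongest peak per gene in each library's list, with circles for wt and squares for Hox-/- libraries, in the 20 kb windows (left) and within 1 kb of a gene end (right). Crosses mark genes with no listed peak, the dashed line is rank 50000, and the Sox17 points of wt (47212 and 41543) lie above it while those of Hox-/- (59307 and 57666) lie below it.

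The loci were not poor in peaks for their size. Their windows held 1.22 (Sox7) to 2.66 (Foxa2) peaks per 10 kb as a mean of the 4 libraries, with a median of 1.75 over the 6 genes and of 1.48 over all protein-coding genes. Fewer of the regions were strong. Of the 72 regions, 5 (6.94%) were among the 50000 strongest in all 4 libraries, against 17.9% of all regions. These 5 were the region 12.6 to 11.7 kb upstream of Gata6, 2 regions of Gata4 and 2 in the body of Hnf4a.

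The regions were arranged differently around each gene. At Sox7 all 7 regions lay upstream or within 1 kb of the start, and no library had a peak in the rest of the body or the 20 kb beyond it. Sox17 showed the reverse, with no region upstream other than those within 1 kb of the start. Of the 16 regions at Gata4, 13 lay in the body, 3 downstream and 0 upstream. Foxa2 had 3 regions upstream, 1 within 1 kb of the start and 6 downstream, and Hnf4a had 7 upstream, 9 in the body, 1 within 1 kb of the far end and 2 downstream.

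**Figure D2:**
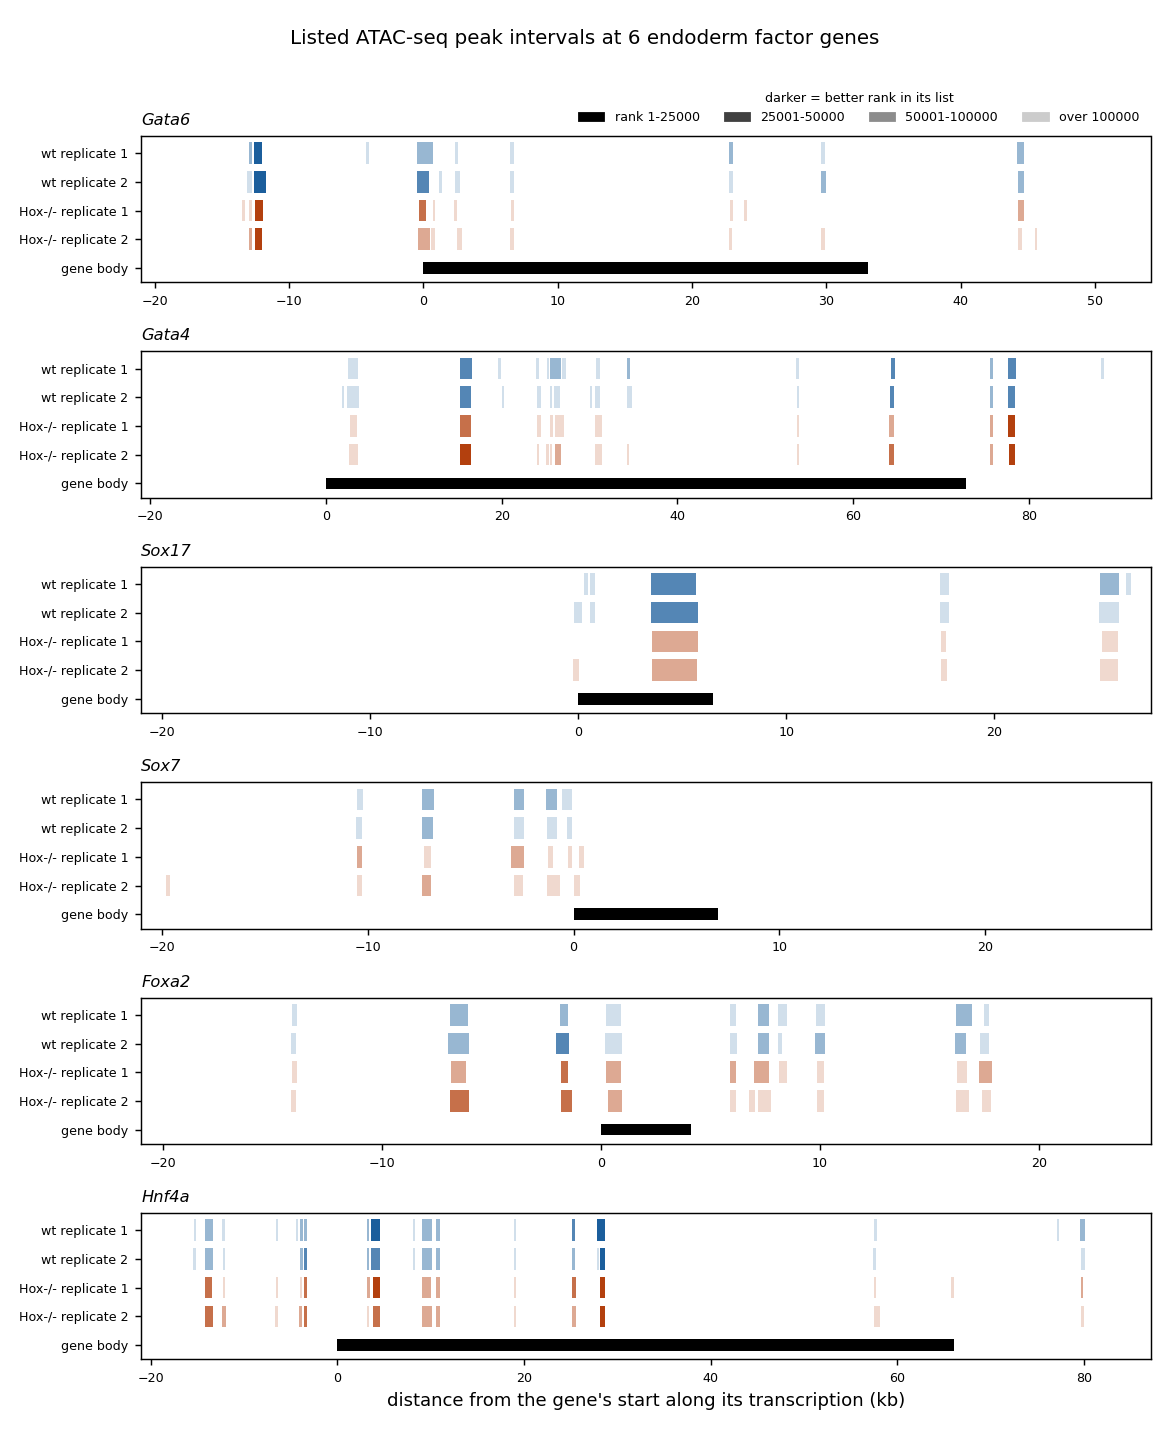
Each panel shows 1 gene, with distance from its start in kb on the horizontal axis, the listed peak intervals of the 4 libraries in rows (blue for wt, orange for Hox-/-) and the gene body as a black bar. Darker bars rank higher in their own list, and most of the dark bars stand at the same places in all 4 rows, such as that 12.6 to 11.7 kb upstream of Gata6.

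The number of peaks at the 6 loci was compared between the genotypes to see whether open chromatin at endoderm genes differs in cells without Hox function. The wt libraries had 83 and 82 peaks in the 6 windows together, and the Hox-/- libraries had 72 and 70. Both Hox-/- counts lay below both wt counts. This gives 82.5 ± 0.707 peaks for wt and 71.0 ± 1.41 for Hox-/- (mean ± SD, n = 2 each). Their difference of −11.5 had p = 0.33 in the two-sided exact permutation test, which is the lowest that 2 against 2 libraries can reach. The ratio of Hox-/- to wt was 0.861 at the 6 loci and 0.910 over the whole lists. Several lines of a list can share 1 interval with different summits, and after merging them the difference was −5.5. It was −3.5 among the 100000 strongest peaks of each library and 1 among the 50000 strongest. Depth can be estimated from the background of each line, and relative to the deepest library it was 0.640 for Hox-/- replicate 1 and 0.941 to 1.00 for the others. Without Hox-/- replicate 1 the difference was −12.5.

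Gata4 contributed most to this difference, with 21 and 20 peaks in wt and 16 and 15 in Hox-/- (difference −5.00, exact permutation p = 0.33). Sox17 had 12 and 11 peaks in wt against 9 in each Hox-/- library, and Hnf4a 23 and 20 against 18 and 19, each with the same smallest possible p of 0.33 in the exact permutation test. For these 3 genes the groups did not overlap. Of the 19820 protein-coding genes with a peak in such a window, 25.3% had fewer peaks in both Hox-/- libraries and 3.54% had more, and the 3 of 6 were not tested against that share. They overlapped for Gata6 (10 and 13 in wt, 11 and 10 in Hox-/-), Sox7 (6 and 5 against 6 and 6) and Foxa2 (11 and 13 against 12 and 11), with an exact permutation p of 1.0 each. Among the 100000 strongest peaks the difference was −0.5 at each of Gata4, Sox17 and Hnf4a. Among the 50000 strongest it was −0.5 at Gata4, −1 at Sox17 and 1.5 at Hnf4a.

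**Figure D3:**
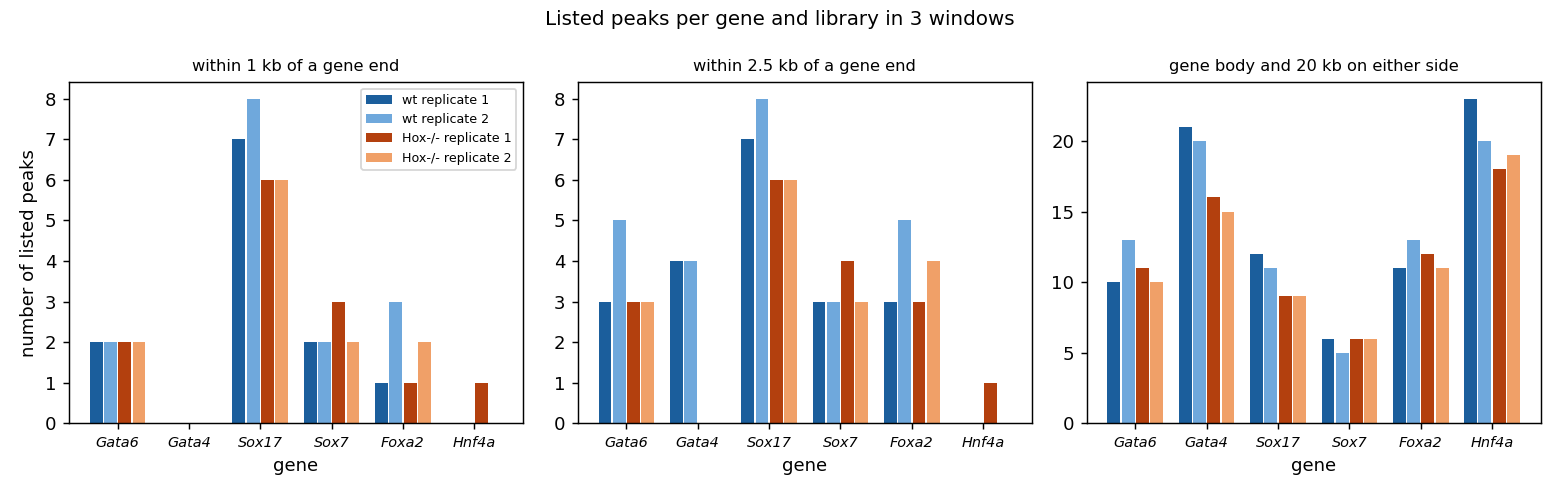
Bars give the number of listed peaks per gene in wt (blue) and Hox-/- (orange) libraries within 1 kb of a gene end, within 2.5 kb of a gene end, and in the body with 20 kb on either side. In the widest window the wt bars of Gata4 (21 and 20) stand above those of Hox-/- (16 and 15), and within 2.5 kb of an end Gata4 has 4 peaks in each wt library and 0 in Hox-/-.

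At the level of regions, most of the landscape was shared. Of the 72 regions, 45 (62.5%) were called in all 4 libraries, close to the 59.0% of all regions, and 16 (22.2%) in 1 library only, against 18.8%. Of 52 regions called in both wt libraries, 3 (5.77%) were in neither Hox-/- library, where the share over all 146726 such regions was 5.44%. Conversely, 1 of 47 regions called in both Hox-/- libraries (2.13%) was in neither wt library, against 1.95% of all. Both shares are near the background. The regions called in 1 library ranked 111119 at best, with a median of 188482.

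The 3 regions called in wt only ranked 146104 at best. One lay 0.575 to 0.829 kb after the start of Sox17 (chr1:4496597-4496851) and ranked 203563 and 180956 in wt replicates 1 and 2, with a fold over background of 1.79 and 2.10. The others were at Hnf4a. That 8.10 to 8.34 kb into the gene (chr2:163514916-163515153), within 1 kb of an end of the small nuclear RNA gene Gm25881, ranked 175123 and 146104, and that 15.4 to 15.1 kb upstream (chr2:163491414-163491693), within 1 kb of an end of the neighbouring R3hdml, ranked 198665 and 194153. The region called in Hox-/- only lay 0.029 to 0.487 kb after the start of Sox7 (chr14:63943735-63944193) and ranked 184923 and 199806, among lists of 191704 and 200214 peaks. Peaks this close to the end of a list are near the limit of q at which the lists stop.

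Of all protein-coding genes, 72.1% and 72.4% had a peak within 1 kb of a gene end in the wt libraries, and 70.9% and 71.5% in the Hox-/- libraries. None of the 6 genes was called there by both wt and neither Hox-/- library (0.640% of protein-coding genes), nor the other way round (0.178%). Gata6, Sox17, Sox7 and Foxa2 had such a peak in all 4 libraries and Gata4 in none. Hnf4a had one in Hox-/- replicate 1 alone, at the far end of the gene, with a rank of 111119. The ends are the outermost of all transcripts of a gene, so a start inside the span is not covered. For Gata4 no inner start was at hand. With windows of 2.5 kb, Gata4 had 4 peaks in each wt library and 0 in both Hox-/- libraries, a pattern shared by 0.521% of protein-coding genes, with 0.146% showing the reverse. All 4 peaks of wt replicate 1 and 3 of the 4 of wt replicate 2 belonged to 1 region, 2.46 to 3.72 kb after the start. The other was a separate peak of wt replicate 2 alone, 1824 to 2027 bp from the start, with a rank of 197394. The region at 2.46 to 3.72 kb was called in all 4 libraries (ranks 141517 and 117484 in wt, 173355 and 131265 in Hox-/-). Its interval began 2470 and 2461 bp from the start in wt and 2769 and 2666 bp in Hox-/-, so that of these only the wt intervals reached into the window.

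Ranks were then compared region by region. A region was taken as weaker in Hox-/- when both Hox-/- libraries ranked it below both wt libraries or did not list it, and as stronger in the opposite case. Of the 72 regions, 12 (16.7%) were weaker and 11 (15.3%) stronger. Over all regions the shares were 17.4% and 15.7%. Of the 45 regions called in all 4 libraries, 8 (17.8%) were weaker and 10 (22.2%) stronger, against 19.6% and 21.5% of all such regions. The counts at the loci are thus near the background in both directions. The Hox-/- lists are shorter, and with each rank divided by the length of its list 17 regions (23.6%) were weaker and 7 (9.72%) stronger, against 25.7% and 9.24% of all regions. All 12 weaker calls were kept. The 4 stronger calls that ended were at Gata6 (2.31 to 2.86 kb), Gata4 (30.6 to 31.4 kb), Foxa2 (14.1 to 13.9 kb upstream) and Hnf4a (3.61 to 3.24 kb upstream). When ranks beyond 100000 were treated as equal, 6 of 37 regions were weaker and 4 stronger (16.2% and 10.8%), against 18.3% and 17.9%.

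**Figure D4:**
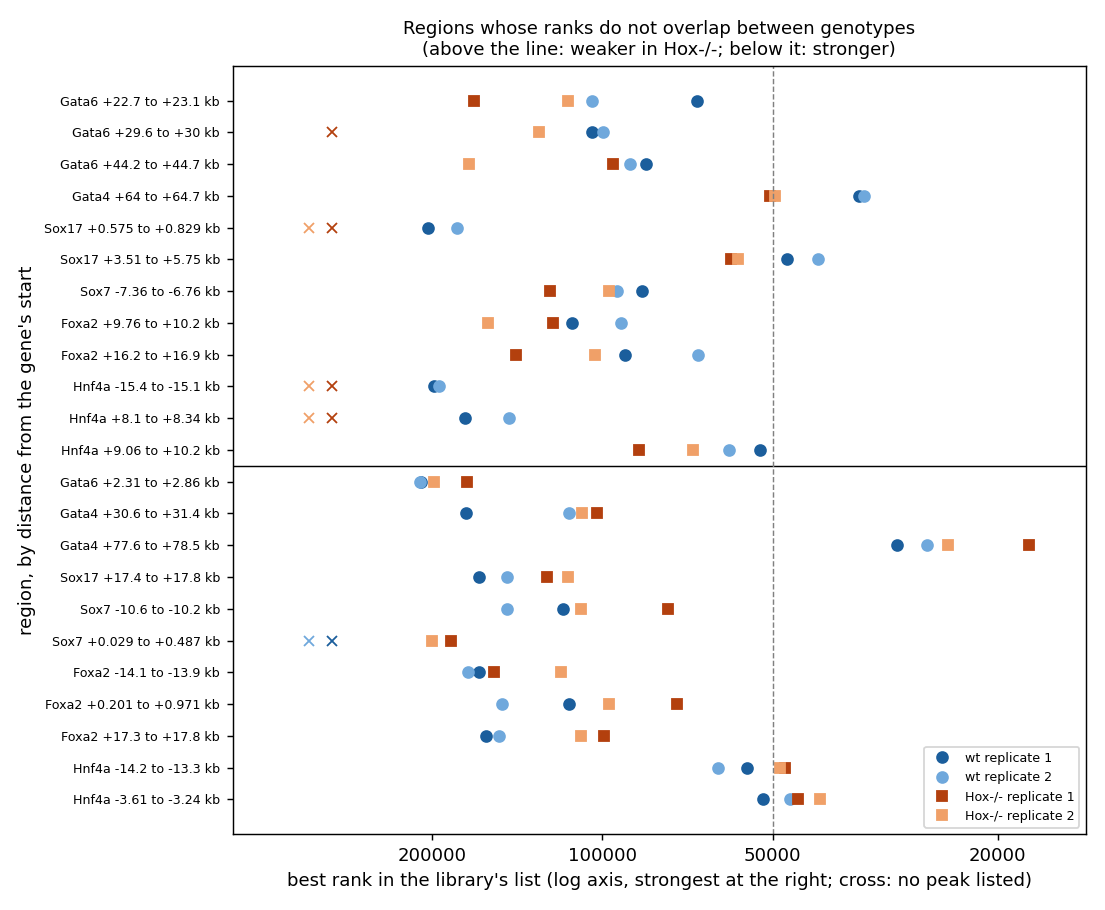
Each row is 1 of the 23 regions whose ranks do not overlap between the genotypes, named by gene and distance from its start, with rank on a log axis (circles for wt, squares for Hox-/-, crosses for a region not listed, dashed line at rank 50000). The 12 regions above the line are weaker in Hox-/- and the 11 below it stronger by rank.

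Gata6 (chr18:11052510-11085636) had 13 regions. The strongest, 12.6 to 11.7 kb upstream (chr18:11039938-11040789), ranked 23647 and 16665 in wt and 23916 and 19849 in Hox-/-, with a fold over background of 15.0 and 17.8 in wt and 13.7 and 14.7 in Hox-/-. The genotypes overlapped in rank. The start of Gata6 was covered by a region of 1364 bp that ranked 56002 and 48255 in wt and 47977 and 51015 in Hox-/-, again with overlap. In both Hox-/- libraries 3 regions ranked lower or were not listed, namely 1 in the body at 22.7 to 23.1 kb (68065 and 104224 against 168477 and 115031), 1 at 29.6 to 30.0 kb (104106 and 99546 against no peak and 129238) and 1 downstream at 44.2 to 44.7 kb (83845 and 89229 against 95898 and 171782). The region 2.31 to 2.86 kb into the gene, near the end of all 4 lists, ranked 209116 and 210089 in wt and 173369 and 198148 in Hox-/-, but as a percentage of list length it stood at 97.9 and 96.9 in wt and 90.4 and 99.0 in Hox-/-, with overlap.

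At Gata4 the best rank belonged to a region 77.6 to 78.5 kb from the start (chr14:63193239-63194092), downstream of the gene and within 1 kb of an end of Neil2, which encodes a DNA glycosylase of base excision repair. It ranked 30200 and 26729 in wt and 17647 and 24473 in Hox-/-, so both Hox-/- libraries placed it higher. This made Gata4 the 1 gene of 6 whose best rank was higher in both Hox-/- libraries, a pattern of 20.6% of the 19820 protein-coding genes with a peak. Without peaks at ends of neighbouring genes, 0 of the 6 genes had it. The strongest region in the body of Gata4, at 15.2 to 16.6 kb (chr14:63255130-63256489), ranked 34556 and 29651 in wt and 30916 and 24669 in Hox-/-, with overlap. The region at 64.0 to 64.7 kb (chr14:63207028-63207675) ranked 35141 and 34486 in wt and 50482 and 49508 in Hox-/-, and its fold was 13.0 and 13.6 in wt and 9.53 and 9.45 in Hox-/-. Replicates of this region were close together and the genotypes apart. A broad region of 1787 bp lay inside the gene, 25.5 to 27.3 kb from the outermost start. It ranked 96506 and 110775 in wt and 123737 and 72160 in Hox-/-, with overlap, and was not strong in any library.

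Sox17 was the 1 gene of 6 whose best rank was lower in both Hox-/- libraries, as in 19.2% of protein-coding genes with a peak. Its best peak lay in a broad region of 2240 bp in the body, 3.51 to 5.75 kb from the start (chr1:4491673-4493912), with 5 and 6 summits in wt and 6 and 5 in Hox-/-. It ranked 47212 and 41543 in wt and 59307 and 57666 in Hox-/-, with a fold of 5.25 and 5.58 against 4.41 and 4.51. The region thus passed from inside to outside the 50000 strongest. Over all protein-coding genes, 0.493% had a strong peak near an end (1 kb) in both wt and neither Hox-/- library, and 0.452% the reverse. The start of Sox17 itself had only weak peaks, none of them in more than 2 libraries, of which the best ranked 180956. Downstream of the gene, the region at 17.4 to 17.8 kb ranked 165206 and 147494 in wt and 125108 and 115031 in Hox-/-, higher in the latter.

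Sox7 had no strong peak in any library. Its region 7.36 to 6.76 kb upstream (chr14:63936347-63936943) ranked 85226 and 94073 in wt and 123838 and 97231 in Hox-/-, lower in the latter. That 10.6 to 10.2 kb upstream (chr14:63933155-63933474) ranked 117546 and 147494 in wt and 76683 and 108863 in Hox-/-, higher in the latter. Nearer to the start, the region 1.33 to 0.651 kb upstream ranked 83051 and 156707 in wt and 167043 and 117080 in Hox-/-. There the replicates of each genotype differed by more than the genotypes. The region 0.580 to 0.063 kb upstream ranked 144096 and 160857 in wt, 160451 in Hox-/- replicate 1 and was not listed in Hox-/- replicate 2. As a percentage of list length it stood at 67.4 and 74.2 in wt and at 83.7 in Hox-/- replicate 1. On that measure it was weaker in Hox-/-, while by rank the genotypes overlapped. The region 3.02 to 2.40 kb upstream (94290 and 102790 in wt, 71248 and 104668 in Hox-/-) overlapped between genotypes.

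Foxa2 had its strongest region 2.04 to 1.33 kb upstream of the outermost start (chr2:148048300-148049007), at ranks of 54773 and 35190 in wt and 45496 and 35001 in Hox-/-, with overlap. The region that overlaps the inner Foxa2 window printed above (chr2:148045998-148046768), and that stops short of the start itself, ranked 114354 and 150690 in wt and 73807 and 97357 in Hox-/-. Its fold was 3.63 and 2.77 in wt against 4.68 and 3.73 in Hox-/-, and it was among the 100000 strongest in Hox-/- libraries only. For that cut no share over all genes is given here, so the pattern is not set against a background. Downstream, 2 regions moved the other way: that at 16.2 to 16.9 kb ranked 91111 and 67843 in wt and 142285 and 103225 in Hox-/-, and that at 9.76 to 10.2 kb ranked 113273 and 92629 against 122250 and 159510. A neighbouring region at 17.3 to 17.8 kb ranked 160298 and 152206 in wt and 99390 and 108863 in Hox-/-. Foxa2 thus had regions of both kinds within 1 kb of each other.

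Hnf4a, with 19 regions, had the strongest peak of the 6 loci. It lay 27.8 to 28.7 kb into the gene (chr2:163534596-163535503), between the 2 Hnf4a windows printed above, and ranked 9426 and 11275 in wt and 11784 and 9659 in Hox-/-. The fold was 16.0 and 16.3 in wt and 15.2 and 16.5 in Hox-/-, and the genotypes overlapped in both measures. A second strong region at 3.58 to 4.60 kb (chr2:163510394-163511411) ranked 24710 and 27547 in wt and 19925 and 36207 in Hox-/-, also with overlap. The region at 9.06 to 10.2 kb was lower in both Hox-/- libraries (52599 and 59831 in wt, 86190 and 69176 in Hox-/-). Upstream, the region 14.2 to 13.3 kb from the start was higher in both (55555 and 62551 in wt, 47611 and 48450 in Hox-/-). The region 3.61 to 3.24 kb from the start, near an end of R3hdml, ranked 51972 and 46648 in wt and 45107 and 41252 in Hox-/-, but overlapped as a percentage of list length (24.3 and 21.5 in wt, 23.5 and 20.6 in Hox-/-).

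Other genes of endoderm were given the same reading, from a list ordered by role. Among 37 such genes, best ranks within 20 kb were lower in both Hox-/- libraries for 7 (18.9%, against 19.2% of all protein-coding genes) and higher for 5 (13.5%, against 20.6%). With rank divided by list length the counts were 11 and 3, against 29.7% and 11.9% of all protein-coding genes, and the higher ranks of Pdgfra and Tdgf1 given below were no longer apart. For 9 of the 12 genes apart by rank alone, the best peak of some library was also within 20 kb of another protein-coding gene, and for Amn and Tdgf1 the libraries had their best peak at different places. At gene ends (1 kb), 0 of them were called by both libraries of a genotype and by none of the other. Of 8 genes of primitive and parietal endoderm, Lamb1, a laminin chain of basement membrane, ranked lower in Hox-/- (24433 and 22323 in wt, 27753 and 30747 in Hox-/-) and Pdgfra, a growth factor receptor, higher (16322 and 12785 against 11610 and 10806). Of 7 genes of visceral endoderm, Apoa1 (8117 and 6141 against 8553 and 8651) and Ihh (7238 and 8241 against 11885 and 14342), for an apolipoprotein and a hedgehog ligand, ranked lower.

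In the same list Afp, for alpha-fetoprotein, ranked higher in Hox-/- (53950 and 64305 in wt, 44853 and 39149 in Hox-/-). So did Amn, for a part of the cubilin receptor (37139 and 36175 against 26185 and 20093). Of 14 genes of definitive endoderm and anterior streak, the homeobox gene Hhex (29288 and 32279 against 35773 and 37723) and Gata5 (5069 and 6509 against 7240 and 7602) ranked lower. Pdx1, a homeobox gene of pancreas, ranked higher (11489 and 11550 against 9390 and 8443). That peak lies 17.1 kb from Pdx1 and within 20 kb of Cdx2 too, and within 1 kb of an end of Pdx1 the ranks overlapped (19927 and 15066 in wt, 17616 and 15475 in Hox-/-). Of 8 genes of signalling, Nodal (6805 and 6953 against 8946 and 9084) and Fgf4 (12914 and 13376 against 13698 and 15939) ranked lower, and Tdgf1, a Nodal coreceptor, ranked higher (18154 and 16167 against 16110 and 13926).

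The labelled cell type was checked at marker genes. All 8 stem cell markers had an end (1 kb) with a peak in all 4 libraries, 7 of them with a strong one in all 4, and the median best rank within 20 kb was 5252. For 6 primitive endoderm markers, 4 of them among the genes described here, the same counts were 4 and 0, with a median of 32882. For 6 fibroblast markers they were 5 and 1 (median 12485), and for 5 trophoblast markers 3 and 1 (median 26228). The counts of ends leave out starts inside a gene span. Open chromatin at a gene does not give its expression, and the part of other cells in these lists was not tested.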

How the data were processed

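The authors deposited 1 peak list per library. The submitters' processing notes name cutadapt 4.8, Bowtie2 2.5.0, Picard 2.18.2, bedtools 2.30.0, MACS2 2.2.9.1, deepTools 3.5.4 and the build mm10, without role or order. Each deposited line holds an interval, an integer score, a fold over background (a ratio), a −log10 p and a −log10 q, all the authors' peak caller's own and used only within a list. The score was not used. The lowest deposited −log10 q was 1.30 in each library.

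Lists were read with Python 3.11.15 and pandas 2.3.3. Peaks were ranked by −log10 p, ties sharing the lower number. Gene spans came from a RefSeq table of GRCm38.p6 (21887 protein-coding genes). The table spans all transcripts of a gene and gives no strand. The strand of Foxa2 and Hnf4a came from the RefSeq promoter table, and that of the other 4 genes from general knowledge. The lists give no read counts. Relative depth is the 0.1% quantile of the background that the fold and p of each line imply under a Poisson model. The exact permutation test over 2 against 2 libraries cannot give a p under 0.33, so counts of genes and regions carry no p and stand beside the share over all genes or regions. All 6 genes were named, with regions at gene ends (those over the Sox17 start together), of best rank, and called in 1 genotype only. Further regions were named because their ranks did not overlap or to show their overlap, after their values were seen. Genes of the endoderm list were named where best ranks did not overlap. The genes, lists and rules were chosen with earlier results of these data known. The steps were tested on simulated lists.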

Additional observations from a re-analysis of the deposited data

How the results depend on the processing

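Of 102 alternative values for the counts and the difference in peak number, 50 moved beyond the spread or by over 1.5 times. For the peak number at single genes 19 of 72 did. The cause was not tested unless fewer peaks, libraries or regions entered by construction. The peak difference of −11.5 was −7 at a −log10 q of at least 5, −3.5 with the 100000 and 1 with the 50000 strongest peaks, −5.5 with overlapping lines merged, −8 with windows of 2.5 kb, −20 with windows of 50 kb and −9 without peaks at ends of other protein-coding genes. The 3 regions called in wt only became 2 at a −log10 q of at least 5, 1 with the 100000 and 1 with the 50000 strongest peaks. The 1 called in Hox-/- only became 0 at a −log10 q of at least 5 and 0 when peaks had to cover 50% of a region. Genes with a peak at an end in wt only were 1 with the 50000 strongest peaks (Sox17) and 1 with windows of 2.5 kb (Gata4), and in Hox-/- only 1 with the 100000 strongest (Foxa2). The shares over all protein-coding genes were 0.493% for the Sox17 pattern and 0.521% for that of Gata4, and none is given for that of Foxa2.

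The 1 gene of lower best rank in Hox-/- became 2 by fold and 3 with windows of 50 kb, and the 1 of higher rank became 0 by fold, 0 with windows of 2.5 kb, 0 with 50 kb and 0 without peaks of neighbouring genes. The 12 weaker regions became 7 with windows of 2.5 kb, 23 with 50 kb and 6 with ranks beyond 100000 tied. Windows of another size hold another number of regions. The 11 stronger ones became 4 with windows of 2.5 kb, 14 with 50 kb, 4 with ranks tied and 7 with rank divided by list length. The Hox-/- lists are shorter (191704 and 200214 peaks against 213705 and 216795 in wt). Whether this accounts for the 7 was not tested. Leaving out peaks of neighbouring genes, tying ranks and keeping only regions called in all 4 were chosen after seeing the data.

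Leaving out 1 library each gave a peak difference of −12.5 to −10.5, 5 to 10 regions in wt only, 1 to 4 in Hox-/- only, 0 to 0 genes with an end peak in wt only and 0 to 1 in Hox-/- only, 2 to 3 genes of lower and 1 to 2 of higher best rank, and 18 to 30 weaker and 16 to 24 stronger regions. The highest of these counts for wt-only and weaker regions (10 and 30) came without wt replicate 2. With 1 library in a group fewer conditions must be met, so more pass. Replicate numbers showed no shared effect in rank (correlation of the rank differences between replicates 0.00367 across 122749 regions). This cannot tell whether the libraries were prepared in pairs. With the replicate block the peak difference was −11.5, 2 genes had a lower and 2 a higher best rank, and 16 regions were weaker and 17 stronger. Depth was 0.640 of the deepest library in Hox-/- replicate 1.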

Other observations

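Several of the regions also lie at noncoding neighbours of the 6 genes. Gata6os, a long noncoding RNA gene, runs from 10.5 kb upstream of Gata6 to 0.0570 kb after its start, and the 1 region within 1 kb of its ends was that over the Gata6 start. Hnf4aos overlaps Hnf4a from 13.0 kb upstream to 34.9 kb into the gene, and 2 regions, both called in all 4 libraries, lay within 1 kb of its ends. The better of them ranked 55555 and 62551 in wt and 47611 and 48450 in Hox-/-. The long noncoding RNA gene 9030622O22Rik begins or ends 6.46 kb from the start of Foxa2, and 2 regions called in all 4 libraries stood there, with best ranks of 96558 and 98420 in wt and 94924 and 107112 in Hox-/-. The lists do not tell which of the overlapping genes a region belongs to.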
